A study of Mus musculus with 32 samples.

Results

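The genes described here are 9 mouse genes whose products fill or mark the granules of neutrophils: *Mpo*, *Elane*, *Prtn3*, *Ctsg*, *Ltf*, *Camp*, *Ngp*, *Retnlg* and *Ly6g*. They were taken as all probes whose gene name in the scanner files is one of these, which gave 11 probes of 55681 on the array, and 9 of 34821 gene names. *Mpo* and *Camp* each had a pair of probes. Where 1 probe stands for a gene, it is the probe with the highest variance over the 32 samples. Levels are log2 of the quantile-normalized intensity of the deposited table, so a difference of 1 is a doubling, and a probe is called well above background where the scanner program said so on that array.

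Neutrophils make their granules in order while they mature in the bone marrow. Myeloperoxidase (*Mpo*), neutrophil elastase (*Elane*), proteinase 3 (*Prtn3*) and cathepsin G (*Ctsg*) are transcribed first, in promyelocytes, and fill the azurophil granules. Lactoferrin (*Ltf*), the cathelicidin (*Camp*) and neutrophilic granule protein (*Ngp*) follow in myelocytes and belong to the specific granules, and most circulating neutrophils carry little of either mRNA. *Retnlg* encodes a resistin-like secreted protein, and *Ly6g* encodes the surface antigen by which mouse neutrophils are commonly recognised.

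The mRNA of liver cells from Balb/c mice aged 6 to 8 weeks was measured. TME endothelial (ET), Ito (IT) and Kupffer (KT) cells came from livers colonised after C26 colon carcinoma cells were placed in the spleen, and control cells (EC, IC, KC) from mice given PBS in the same way. Livers were taken after 14 days in the methods and 15 days in the study scheme, the cells were separated by density gradients and adherence, not by sorting, and were kept in culture for at most 24 h. Primary tumor cells (TP) and liver metastasis cells (TM) completed 8 groups of 4 samples, and the sources used here do not give how these tumor cells were isolated. All tumors come from C26 cells, a single cell line. Each of the 16 arrays carried a control or TM sample in Cy3 and a TME or TP sample in Cy5, so dye and TME cannot be told apart. The arrays of endothelial and Ito cells shared 1 slide, those of Kupffer cells and tumors the other, so slide and cell type cannot be told apart between those pairs. In bulk RNA of this kind, fewer granule-bearing cells and less granule mRNA per cell cannot be told apart.

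The share of spots called well above background ran from 43.8 to 57.1% per liver sample and from 38.4 to 50.3% per tumor sample. The defining marker of Kupffer cells, *Clec4f*, was bright in every liver group, from 11.06 to 16.30, while *Lrat* and *Gfap*, which mark Ito cells, stayed at or below 4.84 in the liver groups and in the tumors. Of the whole list of 11 Ito markers, 10 to 11 were well above background in control Ito samples and 9 to 11 in control endothelial samples. The summed levels were 17.03 to 18.11 and 17.94 to 18.33, and *Dcn* alone was at 17.01 to 18.10 and 17.91 to 18.31. Neither this count nor this sum set the Ito groups apart, and the sum says little of the dimmer markers. Among those, *Lrat* was at 3.82 to 4.63 in control Ito and at 3.01 to 3.65 in control endothelial samples, while *Gfap* and *Acta2* overlapped. *Alb*, a hepatocyte gene, lay between 11.85 and 17.45 in the liver samples. *Epcam*, an epithelial marker, was at or below 4.35 in all 8 tumor samples, while 1 to 2 of the 5 epithelial markers in metastases and 2 to 3 in primary tumors were well above background, with summed levels of 10.21 to 11.52 and of 9.78 to 12.10. Before the results, 3 sets of samples must be named. On array 4 of the Ito and of the Kupffer cells, the difference between TME and control ran against the mean of the other 3 arrays over 17105 probes well above background in all samples, with correlations of -0.66 and -0.60, while the other Ito and Kupffer arrays gave 0.19 to 0.47 and the endothelial arrays 0.51 to 0.78. Among the tumor arrays, numbers 1 and 4 gave -0.20 and -0.07. TME Ito replicate 2 stood apart from all other liver samples in several of the granule genes. Values are therefore given with all samples and without replicate 4 of the Ito and Kupffer groups, and without TME Ito replicate 2 where it matters. Replicate 4 was set apart by its difference between TME and control, which is the quantity tested, and TME Ito replicate 2 by its granule gene levels. Tests without these samples can therefore overstate a difference, and they describe the samples that remain.

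The probes that carry the findings are shown first, 5′ to 3′ and in lower case, because the level of each gene rests on 60 bases. The probes of *Ltf* (chr9:110942873-110942932), *Ngp* (chr9:110324266-110324814), *Ly6g* (chr15:74989023-74989082) and the upstream probe of *Mpo* (chr11:87615121-87615180) lie on the plus strand of mm9. The *Ngp* probe covers 549 bases of the genome with 60 letters, so its sequence is split in the genome.
*Ltf*: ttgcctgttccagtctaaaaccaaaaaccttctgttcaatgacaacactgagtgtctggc
*Ngp*: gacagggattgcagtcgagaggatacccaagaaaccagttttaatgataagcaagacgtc
*Ly6g*: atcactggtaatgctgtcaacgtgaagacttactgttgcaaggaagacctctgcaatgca
*Mpo*, upstream probe: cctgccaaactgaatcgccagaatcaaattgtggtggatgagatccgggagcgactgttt

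The other *Mpo* probe (chr11:87617840-87617899), called the downstream probe here by its position, and the *Elane* probe (chr10:79350902-79350961) contain AATAAA, the letters of the polyadenylation signal, as does the second *Camp* probe. Where the probes lie in their transcripts was not determined. The sequences of the *Camp* probes share a run of 50 letters apart from 2 positions, A16G and T20C, counted from the 5′ end of the first probe. Both are placed on the minus strand of chromosome 9 (chr9:109749911-109749970 and chr9:109749901-109749950), the second over 50 genome bases for its 60 letters, and the differing letters lie outside that placed range. The stretch of 24 bases that holds both is shown with the differing bases in capitals.
*Camp*, first probe: cagccAgagTagtaggcctgcctt
*Camp*, second probe: cagccGgagCagtaggcctgcctt

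The 3 specific granule genes lie on chromosome 9, *Ngp* 574.4 kb from *Camp* and *Ltf* another 618.6 kb on, measured between probe starts in mm9. *Prtn3* and *Elane* are neighbours on chromosome 10, 7.03 kb apart by the same measure. In the RefSeq promoters of GRCm38.p6, which matched all 9 genes by symbol, *Ly6g* with a pair of starts, the 250 bases before the start were searched on both strands for GAGGAA, the core that PU.1 binds, and for TTGCNNAA, a form of the site that C/EBP factors bind. GAGGAA was found for 6 of 9 genes, among them all 4 azurophil genes and 1 of 3 specific granule genes, against 23.3% of 32851 promoters. TTGCNNAA was found for 4 of 9 genes, *Ltf*, *Ngp*, *Retnlg* and 1 start of *Ly6g*, and for none of the 4 azurophil genes, against 9.6% of all promoters. A match is a run of letters and no evidence of binding. The 120 bases before the start are printed for *Prtn3* (chr10:79879547-79879666), *Elane* (chr10:79886192-79886311), *Ltf* (chr9:111019172-111019291) and *Ngp* (chr9:110419688-110419807), plus strand, because these hold a match close to the start, and the matches are in capitals.
*Prtn3*, GAGGAA at -95: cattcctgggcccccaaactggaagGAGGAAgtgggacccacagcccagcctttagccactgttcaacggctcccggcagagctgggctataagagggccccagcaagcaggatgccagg
*Elane*, GAGGAA at -85: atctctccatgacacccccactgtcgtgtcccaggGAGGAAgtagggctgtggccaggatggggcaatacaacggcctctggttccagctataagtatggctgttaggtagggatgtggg
*Ltf*, C/EBP-type match at -75: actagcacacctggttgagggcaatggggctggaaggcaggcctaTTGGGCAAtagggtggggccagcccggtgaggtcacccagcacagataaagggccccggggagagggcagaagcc
*Ngp*, C/EBP-type match next to the start: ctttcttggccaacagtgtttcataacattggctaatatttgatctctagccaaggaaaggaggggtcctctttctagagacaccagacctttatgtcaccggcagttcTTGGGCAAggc

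*Camp*, *Ltf* and *Ngp* lay higher in all 4 TME endothelial samples than in all 4 controls, and in Ito and Kupffer cells they lay higher in replicates 1 to 3 and lower in replicate 4. Without replicate 4 of the Ito and Kupffer groups, *Camp* and *Ngp* rose in TME cells of all 3 types, and *Ltf*, *Ctsg* and *Ly6g* rose in TME Ito cells. With all samples, none of the 9 genes passed the test in any of the 3 cell types. *Camp*, *Ltf*, *Ngp* and *Ly6g* were lower in metastases than in control Kupffer cells, where 16.2% of all probes were lower. The same 4 genes were lower in primary tumors than in TME Kupffer cells, where 17.8% of all probes were.

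**Figure D1:**
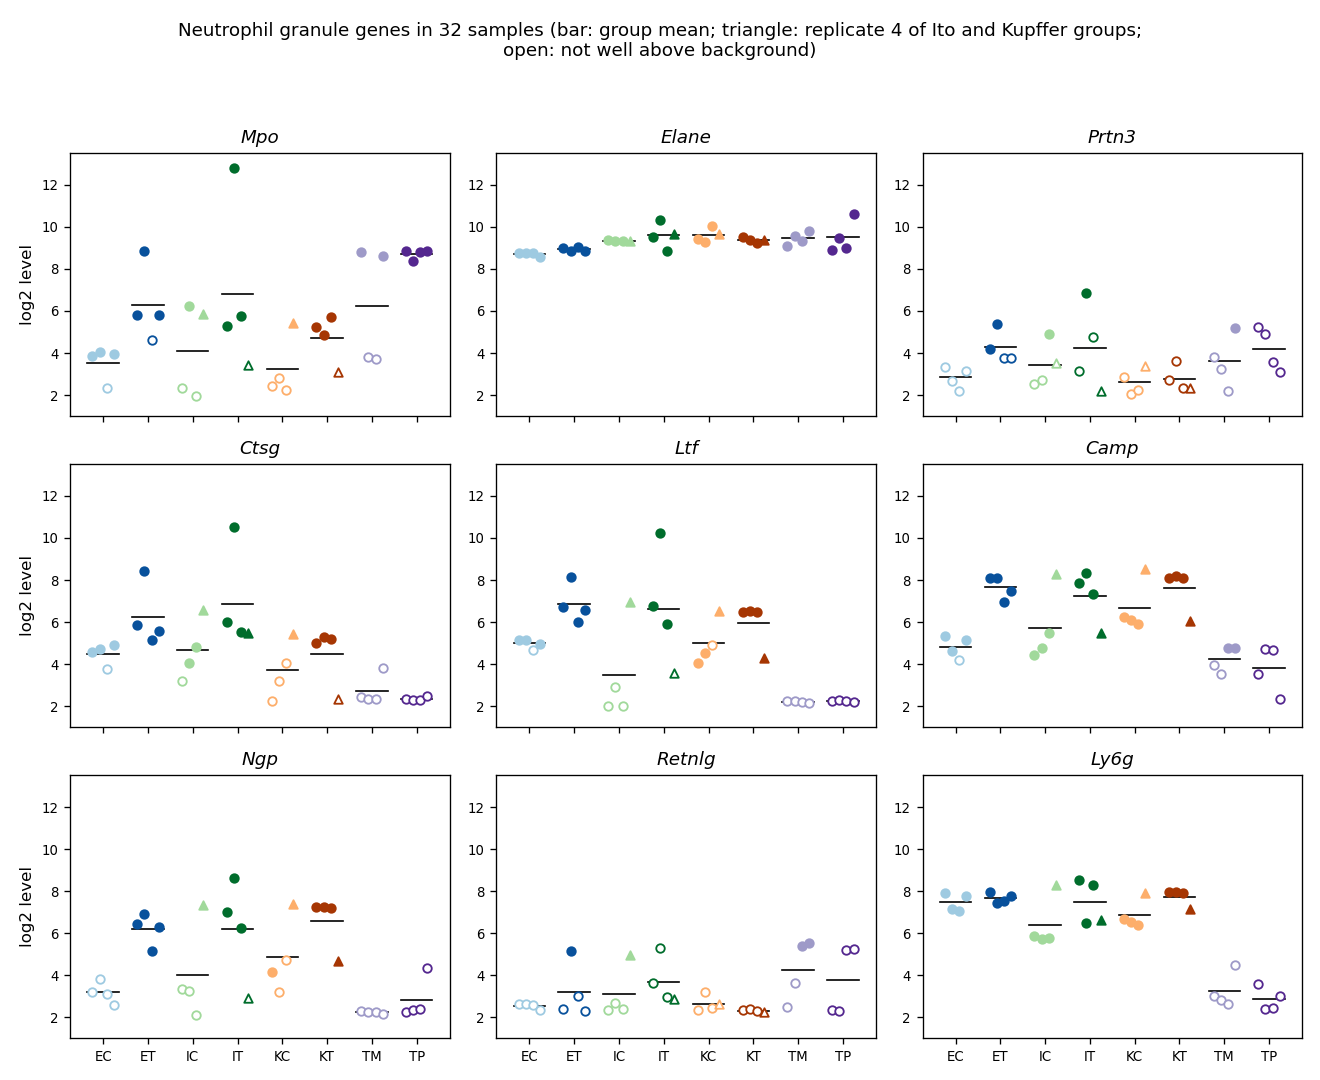
Each panel plots the log2 level of 1 gene (y axis) in the 32 samples by group (x axis), with replicates 1 to 4 from left to right, the bar at the group mean, triangles for replicate 4 of the Ito and Kupffer groups and open symbols where the probe was not well above background. *Camp* ranged from 6.95 to 8.10 in TME endothelial cells and from 4.19 to 5.36 in controls, and the triangles of the Ito and Kupffer groups lie on the side of the opposite group for *Camp*, *Ltf* and *Ngp*.

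*Camp*, the only cathelicidin gene of the mouse, was at 5.36, 4.63, 4.19 and 5.15 in control endothelial replicates 1 to 4 and at 8.09, 8.10, 6.95 and 7.48 in TME endothelial replicates 1 to 4. In Ito cells it was at 4.42, 4.77, 5.49 and 8.28 in controls and at 7.85, 8.34, 7.33 and 5.47 in TME samples. In Kupffer cells it was at 6.22, 6.11, 5.93 and 8.51 in controls and at 8.10, 8.18, 8.10 and 6.06 in TME samples. The endothelial groups did not overlap, and in the other cell types the 3 first replicates did not overlap while replicate 4 lay in the range of the opposite group or beyond it. The difference in endothelial cells was 2.82 ± 0.74 (SE, n = 4 and 4; limma, adjusted p = 0.0623), and 2.82 ± 0.43 in the fit without replicate 4 of the Ito and Kupffer groups (adjusted p = 0.000459). That exclusion removes no endothelial sample and acts through the spread shared by all groups. Without replicate 4, *Camp* rose by 2.95 ± 0.50 in Ito cells (adjusted p = 0.00066) and by 2.04 ± 0.50 in Kupffer cells (adjusted p = 0.0228), against 1.51 ± 0.74 (adjusted p = 0.512) and 0.91 ± 0.74 (adjusted p = 0.878) with all samples. The second *Camp* probe gave 2.34 ± 0.63 in endothelial cells and, without replicate 4, 2.35 ± 0.35 in Ito and 2.00 ± 0.35 in Kupffer cells.

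*Ngp*, a cystatin-like protein of the specific granules, was at 3.20, 3.83, 3.1 and 2.60 in control endothelial cells, where no array measured it well above background, and at 6.44, 6.93, 5.17 and 6.31 in TME endothelial cells, where all 4 did. Control Ito samples were at 3.35, 3.27, 2.12 and 7.32 and TME Ito samples at 7.02, 8.62, 6.24 and 2.91. Control Kupffer samples were at 4.17, 3.22, 4.74 and 7.39 and TME Kupffer samples at 7.25, 7.25, 7.18 and 4.66. Again replicate 4 of the control Ito and Kupffer groups was the highest of its group and replicate 4 of the TME groups the lowest. Because the controls had only a bound, the endothelial difference is given as at least 2.12-fold (adjusted p = 0.221 with all samples and 0.001 without replicate 4 of the other cell types). Such bounds compare the mean of the brighter group with the lowest signal that counted as well above background, or with a dim sample's own level where that was higher. They were taken on the loess-normalized scale after background correction with an offset of 50, which shrinks the ratios of dim probes. The size of a bound is therefore not comparable with a log2 difference from the deposited table. In Ito cells without replicate 4 the difference was at least 2.88-fold (adjusted p = 4.35e-05), and in Kupffer cells, where 1 of the 3 controls was well above background, *Ngp* rose by 3.18 ± 0.57 on the log2 scale (adjusted p = 0.00275).

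*Ltf*, whose product binds iron, was at 5.16, 5.16, 4.66 and 4.98 in control and at 6.70, 8.16, 6.03 and 6.59 in TME endothelial cells. Control Ito samples were at 2.00, 2.93, 2.02 and 6.96, and TME Ito samples at 6.79, 10.22, 5.90 and 3.57. Control Kupffer samples were at 4.07, 4.53, 4.92 and 6.53, and TME Kupffer samples at 6.49, 6.54, 6.48 and 4.28. The first 3 TME Kupffer samples agreed within 0.06, and control Ito replicates 1 to 3 were the lowest liver samples for *Ltf*, none well above background. The endothelial difference was 1.88 ± 0.98 (adjusted p = 0.725; 0.126 without replicate 4 of the other cell types). In Ito cells *Ltf* was at least 3.71-fold higher in TME samples without replicate 4 (adjusted p = 2.15e-05), and with all samples the difference was 3.14 ± 0.98 (adjusted p = 0.263). In Kupffer cells it was 2.00 ± 0.66 without replicate 4 (adjusted p = 0.0969) and 0.94 ± 0.98 with all samples.

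*Mpo*, the peroxidase of the azurophil granule, was at 3.85, 4.04, 2.33 and 3.94 in control and at 5.82, 8.86, 4.62 and 5.83 in TME endothelial cells by its downstream probe. Control Ito samples were at 2.35, 6.23, 1.94 and 5.85, and TME Ito samples at 5.29, 12.80, 5.76 and 3.42. Control Kupffer samples were at 2.43, 2.82, 2.24 and 5.44, and TME Kupffer samples at 5.24, 4.85, 5.70 and 3.09. TME Ito replicate 2 was by far the highest of the 24 liver samples, at a linear intensity of 7140, and TME endothelial replicate 2 came second at 466. With all samples the differences did not pass the test, at 2.74 ± 1.48 for endothelial (adjusted p = 0.766), 2.72 ± 1.48 for Ito (adjusted p = 0.555) and 1.48 ± 1.48 for Kupffer cells (adjusted p = 0.922). Nor did they without replicate 4 of the Ito and Kupffer groups, with an adjusted p of 0.635 for endothelial cells, 4.44 ± 1.60 (adjusted p = 0.0979) for Ito cells, and at least 1.45-fold (adjusted p = 0.451) for Kupffer cells, where no control was well above background. The upstream probe was well above background in only 3 of the 24 liver samples, TME Ito replicate 2 at 10.20, TME endothelial replicate 2 at 6.73 and control Ito replicate 2 at 4.50, which are also the 3 highest by the downstream probe.

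*Ctsg*, a serine protease of the same granule, was at 4.59, 4.71, 3.77 and 4.90 in control and at 5.85, 8.43, 5.17 and 5.56 in TME endothelial cells. Control Ito samples were at 3.21, 4.03, 4.80 and 6.57, and TME Ito samples at 5.99, 10.52, 5.51 and 5.49. Control Kupffer samples were at 2.23, 3.21, 4.07 and 5.42, and TME Kupffer samples at 5.01, 5.30, 5.19 and 2.35. The same 2 samples, TME Ito replicate 2 and TME endothelial replicate 2, were the highest of the liver samples. Without replicate 4, *Ctsg* rose by 3.33 ± 0.91 in TME Ito cells (adjusted p = 0.0272; 2.23 ± 0.93 and adjusted p = 0.429 with all samples), and this call was lost without TME Ito replicate 2 as well, at a difference of 1.74 (adjusted p = 0.135).

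*Prtn3*, which shares its locus with *Elane*, was well above background in 4 of the 24 liver samples and 1 of the 8 tumor samples. Its highest level was again 6.86 in TME Ito replicate 2, with TME endothelial replicate 2 next at 5.39. No difference in *Prtn3* between TME and control passed the test, with or without replicate 4. *Elane* behaved differently from the other azurophil genes. Its probe was well above background in all 32 samples and moved little, between 8.59 and 10.62, with 10.31 in TME Ito replicate 2. In endothelial cells it was at 8.71 ± 0.08 (SD, n = 4) in control and 8.93 ± 0.10 in TME samples, a difference of 0.22 ± 0.27 (SE; adjusted p = 1). Over the 24 liver samples its Pearson correlation with *Mpo*, *Prtn3* and *Ctsg* was 0.24, 0.10 and 0.22, while *Mpo* and *Ctsg* correlated at 0.88 and *Ctsg* and *Prtn3* at 0.80. These correlations are descriptions over samples that share arrays, dyes and cell types. *Elane* lies between *Prtn3* and *Cfd* on chromosome 10, and whether its probe reads other transcripts was not tested.

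*Retnlg* was well above background in 2 of the 24 liver samples, TME endothelial replicate 2 at 5.13 and control Ito replicate 4 at 4.95, and its differences did not pass the test in any cell type. *Ly6g* was well above background in all 24 liver samples. It was at 7.93, 7.14, 7.07 and 7.76 in control and 7.94, 7.43, 7.54 and 7.78 in TME endothelial cells, which overlap. Control Ito samples were at 5.88, 5.73, 5.76 and 8.28 and TME Ito samples at 8.54, 6.47, 8.31 and 6.62. Control Kupffer samples were at 6.65, 6.53, 6.38 and 7.89 and TME Kupffer samples at 7.95, 7.96, 7.93 and 7.13. *Ly6g* therefore differed little in endothelial cells, 0.20 ± 0.52 (adjusted p = 1), and without replicate 4 it rose by 1.98 ± 0.45 in TME Ito cells (adjusted p = 0.00799) and was 1.43 ± 0.45 higher in TME Kupffer cells (adjusted p = 0.0818). TME Ito replicate 2, the sample with the most *Mpo*, *Ctsg*, *Ltf* and *Ngp*, had the lowest *Ly6g* of the TME Ito samples.

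Counted over the list with all samples, 0 of 9 genes were called in endothelial cells, where 1.14% of all probes were, 0 of 9 in Ito cells, against 0.289%, and 0 of 9 in Kupffer cells, against 0.436%, by limma at an adjusted p under 0.05. At an unadjusted p under 0.05 there were 2, 3 and 0 genes, and the methods' t-test called 2, 0 and 0. All the same, 7 of 9 genes lay higher in every TME endothelial sample than in every control, against 7.05% of all probes, and *Retnlg* and *Ly6g* overlapped. For each of the 7, an exact permutation test gave 0.0286, two-sided, which is the smallest p that 4 against 4 samples allow and is not adjusted over the 36 such tests run. Groups that do not overlap always give this value, so the test adds nothing to the count of 7. In Ito cells 0 of 9 genes separated the groups, against 6.45% of all probes, and in Kupffer cells 0 of 9, against 3.69%. Without replicate 4 of the Ito and Kupffer groups, 2 of 9 genes rose in endothelial cells (0.835% of all probes rose), 5 of 9 in Ito cells (3.69%) and 2 of 9 in Kupffer cells (1.75%), and none fell. In that setting 6 of 9 genes lay higher in every TME sample in Ito cells, against 18.7% of all probes, and 6 of 9 in Kupffer cells, against 15.7%. Without replicate 4, the 9 genes had a median difference of 1.76 for endothelial, 2.95 for Ito and 2.00 for Kupffer cells, and the median of all probes was within 0.01 of 0. Without TME Ito replicate 2 in addition, the counts that rose were 3, 4 and 4 of 9, against 1.44%, 4.99% and 3.36% of all probes. Array replicate 4 set the sign as plainly as the other arrays: the difference was negative for 8 of 9 genes in Ito and 9 of 9 in Kupffer cells, and positive for 7 to 9 of 9 genes on arrays 1 to 3. Why this array runs the other way was not tested.

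**Figure D2:**
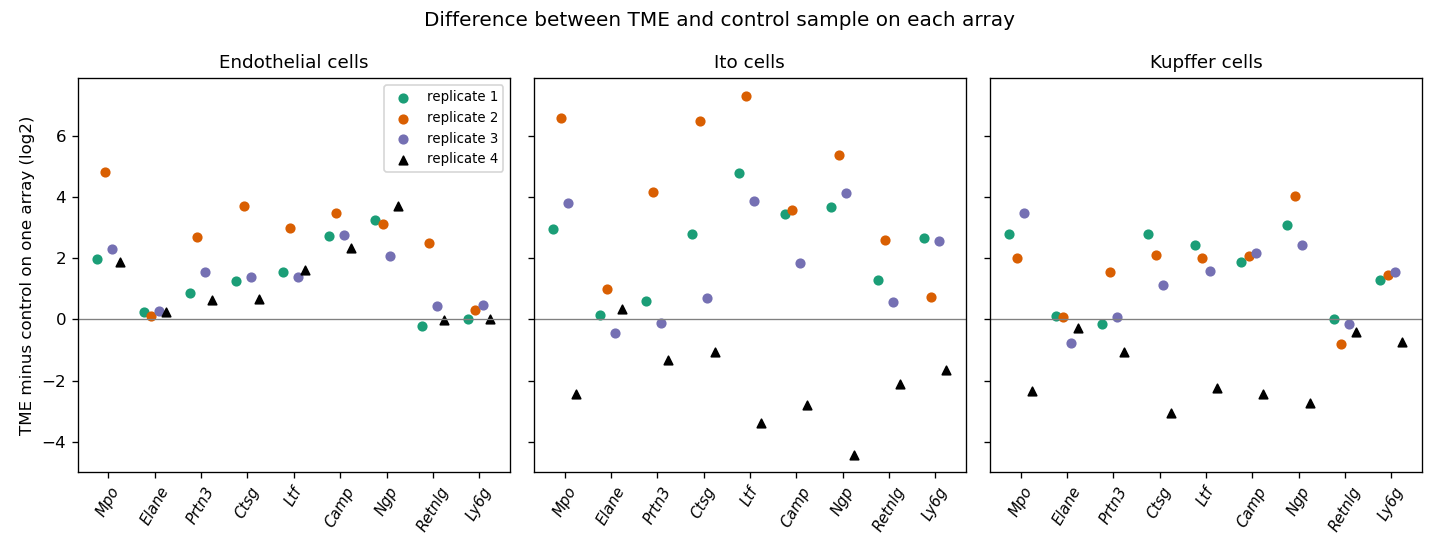
The plot shows the log2 difference between the TME and the control sample of the same array (y axis) for each gene (x axis) in the 3 cell types, with 1 point per array and black triangles for replicate 4. In Ito and Kupffer cells the triangles lie below 0 for *Ngp* at -4.42 and -2.73, while the other arrays lie above 2.

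**Figure D3:**
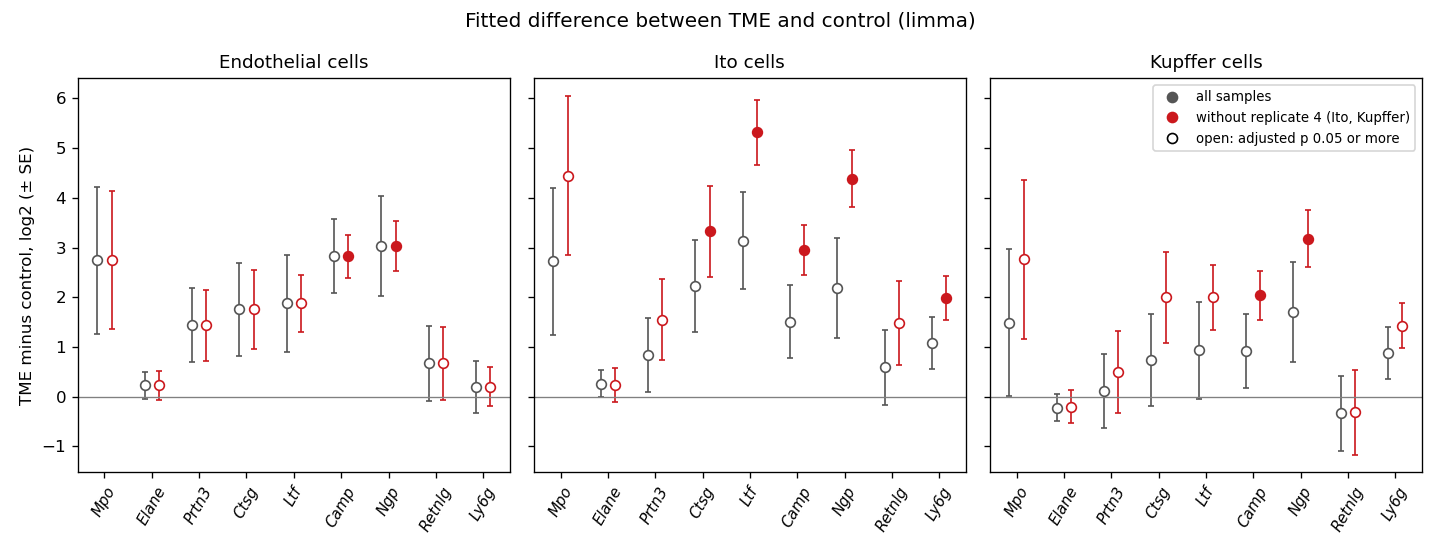
The plot shows the fitted log2 difference between TME and control with its SE (y axis) for each gene (x axis) and cell type, with all samples in grey and without replicate 4 of the Ito and Kupffer groups in red, filled where the adjusted p was under 0.05. Filled points appear in red only, for *Camp* and *Ngp* in all 3 cell types and for *Ltf*, *Ctsg* and *Ly6g* in Ito cells. The fitted values of *Ngp* in endothelial and of *Ngp* and *Ltf* in Ito cells rest on controls that were not well above background.

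Whether the change differed between cell types was tested as a contrast of the differences. With all samples, 0 of 9 genes were called by limma for Ito against endothelial cells (0.111% of all probes), for Kupffer against endothelial cells (0.0808%) or for Kupffer against Ito cells (0.00359%), and 0 in each had an unadjusted p under 0.05. Without replicate 4, 1 was called: the *Ltf* difference was larger by 3.44 ± 0.87 in Ito than in endothelial cells (adjusted p = 0.0446; 1.67% of all probes were called), while the contrasts of Kupffer with endothelial and with Ito cells called 0 of 9 (0.395% and 0.183% of all probes). The control Ito level in that contrast was not well above background, so its size is set by the background too. *Ly6g* followed with 1.78 ± 0.60 (adjusted p = 0.165), which passed only without TME Ito replicate 2 as well. With replicate 4, or any other number, left out of all groups, no contrast was called for any of the 9 genes.

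Cell types were also compared within the control and within the TME samples. With 9 genes and the shares of all probes given here, 0 or 1 call does not set the granule genes apart from other probes. With all samples, 0 of 9 genes were called between control Ito and control endothelial cells (9.89% of all probes), between TME Ito and TME endothelial cells (8.26%), between control Kupffer and control Ito cells (14.8%), between TME Kupffer and TME endothelial cells (21.8%) and between TME Kupffer and TME Ito cells (15.2%). At an unadjusted p under 0.05 there were 1, 1, 0, 1 and 1 genes, and the methods' t-test called 1, 0, 0, 1 and 0. *Elane* was higher in control Kupffer than in control endothelial cells, by 0.90 ± 0.27 (adjusted p = 0.017; 1 of 9 genes and 21% of all probes), and the 4 Kupffer samples, from 9.29 to 10.03, lay above the 4 endothelial samples, from 8.59 to 8.75. The adjusted p was 0.0539 without replicate 4 of the Ito and Kupffer groups. Without replicate 4, *Ltf* and *Ly6g* were lower in control Ito than in control endothelial cells (2 of 9 genes; 11.7% of all probes): *Ltf* was at least 1.29-fold lower (adjusted p = 0.00505), and *Ly6g* fell by 1.69 ± 0.42 (adjusted p = 0.00936). *Ltf* was also at least 1.26-fold higher in control Kupffer than in control Ito cells (adjusted p = 0.0275; 1 of 9 genes, 14.1% of all probes). That last call was not made when replicate 4 was left out of every group.

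In the tumors, *Ltf*, *Ngp*, *Ly6g* and *Ctsg* were not well above background in any of the 8 samples. *Ltf* was at 2.23, 2.25, 2.21 and 2.17 in liver metastasis and at 2.26, 2.27, 2.24 and 2.22 in primary tumor cells. *Camp* was at 3.95, 3.51, 4.76 and 4.77 in metastases, where 2 samples were well above background, and at 3.51, 4.71, 4.67 and 2.33 in primary tumors, where none was. Between primary tumor and metastasis 0 of 9 genes were called (3.01% of all probes), with 0 at an unadjusted p under 0.05 and 0 by the methods' t-test.

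Against control Kupffer cells, which carried the same dye on the same slide, 4 of 9 genes were lower in metastases (16.2% of all probes were). *Camp* fell by 2.45 ± 0.74 (adjusted p = 0.00896), *Ly6g* was at least 2.10-fold lower (adjusted p = 1.72e-06), *Ltf* at least 1.38-fold (adjusted p = 0.0231) and *Ngp* at least 1.37-fold (adjusted p = 0.0394). Without replicate 4 of the Ito and Kupffer groups these bounds shrank to 1.84-fold for *Ly6g*, 1.21-fold for *Ltf* and 1.09-fold for *Ngp*. The limma calls remained, and only 1 control Kupffer sample was then well above background for *Ngp*. Against TME Kupffer cells the same 4 genes were lower in primary tumors (17.8% of all probes were), *Camp* at least 3.25-fold (adjusted p = 0.000107), *Ly6g* at least 2.92-fold (adjusted p = 1e-08), *Ngp* at least 1.85-fold (adjusted p = 0.00325) and *Ltf* at least 1.51-fold (adjusted p = 0.00267). Without replicate 4 of the Ito and Kupffer groups *Ctsg* was called lower too, at least 1.17-fold (limma, adjusted p = 0.0098, against 0.0688 with all samples). Without all samples numbered 1, *Ly6g* alone was called in the first of these comparisons and *Camp*, *Ltf* and *Ly6g* in the second, and without those numbered 3 *Camp* and *Ly6g* were called in the first.

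*Mpo* went the other way in the tumors by its downstream probe, and so did *Retnlg* and *Prtn3*, which were not called by limma. *Retnlg* was at 2.50, 3.61, 5.37 and 5.55 in metastases, with 2 samples well above background. It was at least 1.21-fold higher there than in control Kupffer cells (adjusted p = 0.0961), and *Prtn3* at least 1.06-fold (adjusted p = 0.349). In primary tumors against TME Kupffer cells neither gene was well above background (adjusted p = 0.126 and 0.122). *Mpo* was at 8.79, 3.82, 3.71 and 8.64 in metastases and at 8.86, 8.37, 8.81 and 8.85 in primary tumors. The primary tumors lay within 0.5 of each other, and metastasis replicates 1 and 4 were at their level while replicates 2 and 3 were not well above background. Against TME Kupffer cells *Mpo* was higher in primary tumors by 4.01 ± 1.48 (adjusted p = 0.0294; 25.7% of all probes were higher), and this call was lost without replicate 4 of the Ito and Kupffer groups (adjusted p = 0.07) and without all samples numbered 1, 3 or 4 (adjusted p = 0.10, 0.072 and 0.13). The upstream *Mpo* probe printed above was between 2.05 and 2.52 in all 8 tumor samples and not well above background in any. The probes thus disagreed in the tumors, while both were highest in TME Ito replicate 2, and what the downstream probe reads in the tumor cells was not tested.

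**Figure D4:**
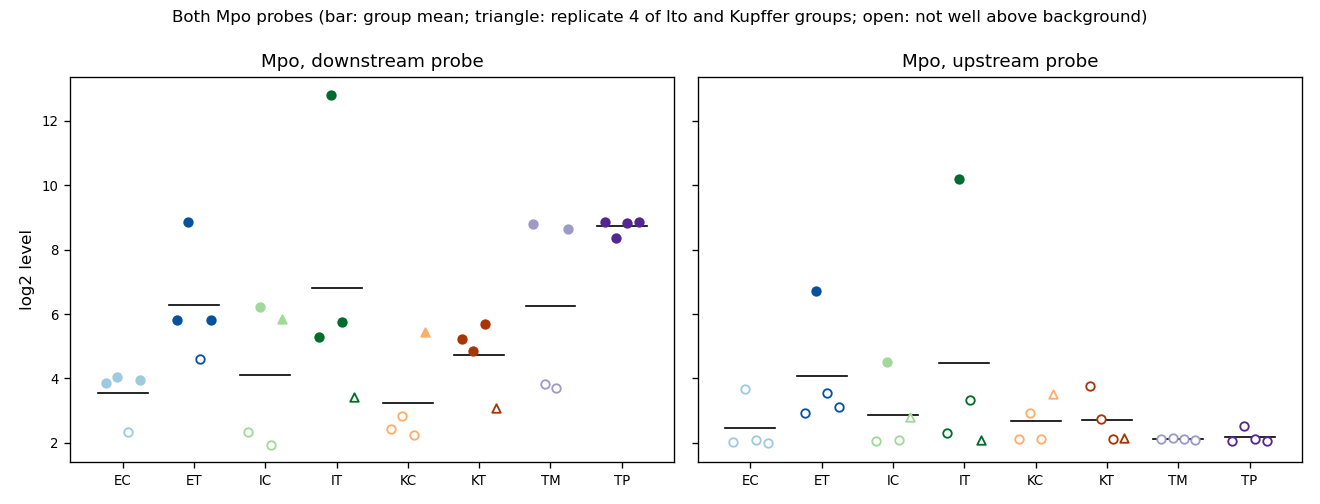
The left panel plots the downstream probe of *Mpo* and the right panel the upstream probe, with log2 level on the y axis and the 32 samples by group on the x axis, bars at group means, triangles for replicate 4 of the Ito and Kupffer groups and open symbols where not well above background. In the primary tumors the downstream probe lies at 8.37 to 8.86 and the upstream probe at 2.05 to 2.52, while TME Ito replicate 2 is the highest sample in both, at 12.80 and 10.20.

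The azurophil and the specific granule genes were compared as 2 sets over the 24 liver samples. *Elane* was left out because its correlations with the other azurophil genes were low, a choice made after its values were seen, and *Prtn3* was well above background in 4 of the 24 samples. The mean of *Mpo*, *Ctsg* and *Prtn3* and the mean of *Ltf*, *Camp* and *Ngp* correlated at 0.74, and at 0.69 without the 2 samples that stood apart. In TME Ito replicate 2 the azurophil mean was 10.06, against at most 5.35 in the other TME Ito samples, and the specific mean was 9.06, against at most 7.22. In TME endothelial replicate 2 the means were 7.56 and 7.73, against at most 5.29 and 7.08 in the other TME endothelial samples. The first 3 TME Kupffer samples had specific means of 7.25 to 7.32 with azurophil means of 4.32 to 4.59.

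**Figure D5:**
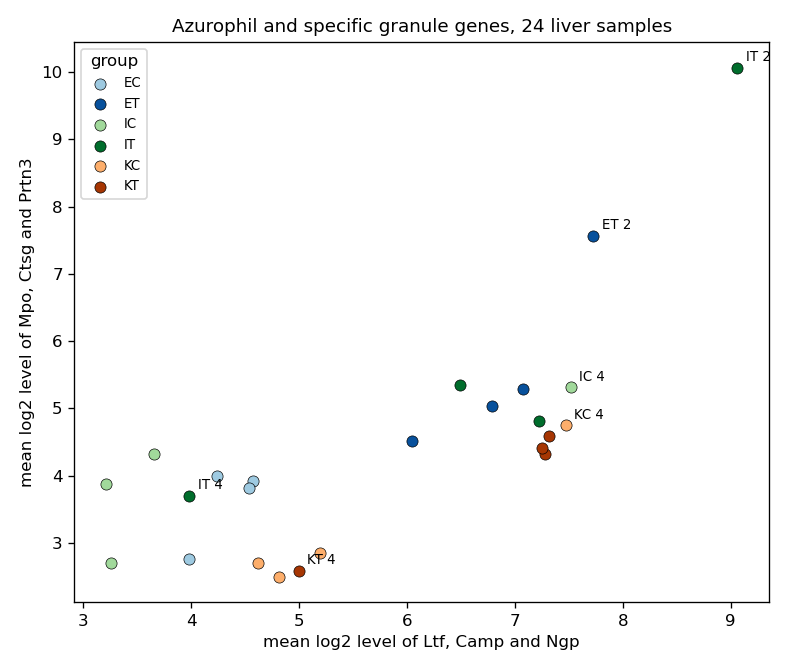
Each point is 1 of the 24 liver samples, with the mean log2 level of *Ltf*, *Camp* and *Ngp* on the x axis and of *Mpo*, *Ctsg* and *Prtn3* on the y axis, coloured by group. TME Ito replicate 2 lies alone at the top right, at 9.06 and 10.06, TME endothelial replicate 2 follows at 7.73 and 7.56, and control Ito and Kupffer replicate 4 lie among the TME samples.

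Other genes moved in these 2 samples too. In TME Ito replicate 2, *Krt18* was at 16.84 and *Krt8* at 15.13, both keratins of simple epithelia, against at most 12.04 and 10.30 in the other TME Ito samples, and *Acta2*, smooth muscle actin, was at 12.50 against at most 6.46. *Lcn2*, a specific granule gene that epithelial cells also express, was at 15.75 against at most 12.65. *Cebpe*, the C/EBP factor of granulocyte maturation, was at 8.25 against at most 5.03, and *Myb*, a factor of early haematopoietic cells, was at 6.55 against at most 3.46. The Kupffer genes *Clec4f* and *Vsig4* were lowest there among the liver samples, at 11.06 and 9.14, and *Pecam1* of endothelial cells at 8.60. In TME endothelial replicate 2, *Hba-a1*, a globin gene, was at 13.85 against at most 8.93 in the other TME endothelial samples, with *Myb* at 5.82 against at most 4.08. The part of these other cells in the granule gene levels was not tested.

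Further neutrophil genes were taken from lists. Of 19 other granule genes, with all samples none passed the test between TME and control in any of the 3 cell types. Without replicate 4, 1 rose in endothelial cells (0.835% of all probes rose), 6 rose in Ito cells (3.69%), 3 rose in Kupffer cells (1.75%) and none fell, with median differences of 0.50, 1.40 and 1.09, part of them from genes that were not well above background in the controls. *Chi3l3*, a chitinase-like protein of neutrophils and macrophages, rose by 3.33 in endothelial cells (adjusted p = 0.00022) and by 3.64 in Kupffer cells (adjusted p = 0.00054), and in Ito cells the bound was at least 2.66-fold, with an adjusted p of 4.87e-05. *Mmp9*, gelatinase B, was at least 1.40-fold higher in TME Ito cells, with an adjusted p of 0.0181. Only 1 TME Ito sample was well above background for it, so the mean in this bound includes TME samples that were not. In the Kupffer cells *Mmp9* rose 1.86-fold or more, with an adjusted p of 0.00745. *Pglyrp1*, a peptidoglycan-binding granule protein, rose at least 1.58-fold in Ito cells, where 2 TME samples were well above background, and 1.39-fold in Kupffer cells. Its adjusted p was 0.00786 and 0.0326. *Mmp8*, neutrophil collagenase, rose in Ito cells, by 1.59-fold or more (adjusted p = 0.0413), with a bound of 1.38-fold in endothelial cells (adjusted p = 0.242) and a difference of 2.23 in Kupffer cells (adjusted p = 0.25). Of 20 genes of the neutrophil cytosol and surface, none passed the test with all samples, and without replicate 4 endothelial cells had 3 that rose, Ito cells 7 and Kupffer cells 3, against the same shares of all probes, and none fell. Among them the stefin gene *Stfa1* rose in all 3 cell types, with bounds of at least 2.77-fold for endothelial, 2.60-fold for Ito and 2.16-fold for Kupffer cells and adjusted p of 0.004, 0.00118 and 0.00634. *S100a8*, a calprotectin subunit, rose by 3.27 in endothelial and 3.31 in Ito cells, with 1.39 in Kupffer cells (adjusted p = 0.36). *Cxcr2*, the chemokine receptor of mature neutrophils, stayed at or below 4.59 in all liver samples.

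Of the 12 genes listed as factors of granulocyte development and recruitment, *Gfi1*, a repressor needed for neutrophil maturation, rose by 1.78 in endothelial cells both with all samples (adjusted p = 0.00058) and without replicate 4 of the other cell types (adjusted p = 3.2e-05), and by 1.37 in Kupffer cells (adjusted p = 0.0028) without replicate 4, and was 0.47 higher in Ito cells (adjusted p = 0.30). Without replicate 4, *Cebpe* rose by 2.16 in Ito cells (adjusted p = 0.035; 1.33 and adjusted p = 0.455 with all samples), with 1.94 in endothelial and 0.25 in Kupffer cells, where neither passed. The Ito call includes TME Ito replicate 2, which at 8.25 stood far above the other TME Ito samples. Over all samples *Cebpe* ran from 3.77 to 8.25 in TME Ito and from 3.09 to 4.93 in control Ito cells, so the rise leans on that sample. *Cxcl2*, a chemokine that attracts neutrophils, fell by 3.51 in TME Ito cells without replicate 4 (adjusted p = 0.0013; 3.97% of all probes fell), against -2.05 with all samples (adjusted p = 0.367). Of the monocyte markers, none of the 4 on the array passed the test with all samples, and without replicate 4, 2 of 4 rose in Ito, 2 of 4 in Kupffer and 1 of 4 in endothelial cells (3.69%, 1.75% and 0.835% of all probes), *Chi3l3* among them. The summed level of the monocyte list ranged from 17.4 to 18.6 in control and from 17.4 to 17.8 in TME endothelial cells. In Ito cells it ranged from 15.9 to 18.6 and from 16.7 to 18.2, and in Kupffer cells from 16.9 to 18.2 and from 17.1 to 17.6. In the liver samples *Chi3l3* was at or below 8.13 and *Ccr2* at or below 7.23, so the sum rests on the other genes of the list. It does not show how *Chi3l3* and *Ccr2* changed. The part of monocytes in the granule gene differences was not tested.

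The named genes outside the list whose levels followed the members most closely over the 24 liver samples were *Pglyrp1* (Pearson r = 0.94 with the mean of 8 standardized members), *Cck* (0.92), *3300005D01Rik* (0.92), *E2f2* (0.91), *Snap47* (0.90), *Stfa2l1* (0.90), *Stfa1* (0.90) and *Chchd5* (0.89), out of 22143 candidate probes. *Retnlg* was left out of the mean because it was well above background in under 4 liver samples. Among the members, *Ltf* and *Ngp* followed the mean most closely, at 0.93 and 0.92, and *Elane* and *Ly6g* least, at 0.33 and 0.51. Without TME Ito replicate 2, *Stfa1* and *Stfa2l1* were at 0.98 and 0.97, and *Pglyrp1* at 0.91.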

How the data were processed

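The mRNA of 32 samples was measured on 16 Agilent two-colour arrays, each sample in its own channel. Per the methods the authors read the scans with Feature Extraction and normalized by quantiles. The deposited table holds these intensity values on a linear scale. Its log2 correlated with the quantile-normalized processed signal of the scanner files at 0.999857 or more in each sample, differed by a median of at most 0.0568, and had column medians of 4.21 to 4.30, so scale and direction are known and genes were not centred. From it, log2 levels were compared between 8 groups with limma 3.58.1 (lmFit, eBayes) in R 4.3.3, in a single fit of all samples, with Benjamini-Hochberg adjustment over 55681 probes and calls at an adjusted p under 0.05. Replicates are the study's biological replicates. Spots were well above background by the scanner's flag, and none was saturated. The number of arrays, 4 a group, limits the precision. All probes of the 9 genes are named. Gene names and mm9 coordinates are those of the scanner files, and promoters are from RefSeq. Members and gene lists were chosen with earlier results of these data known. Genes of the lists named in the text are those called, or examples of a list chosen after their values were seen. The steps were tested on simulated data with independent noise and no reversed array, outlying sample or background floor. That test therefore says nothing of how these features affect the calls. Figures were drawn with matplotlib 3.10.9 in Python 3.11.15. Samples on an array were not treated as pairs. Their deviations from the group means correlated at 0.05 to 0.40 on the endothelial arrays and at -0.64 to 0.23 on the others. This does not settle whether shared arrays pair the samples. With the array as a random block, the consensus correlation was 0.078.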

Additional observations from a re-analysis of the deposited data

Results flagged for a closer look

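Of 72 sets of 4 values (9 genes in 8 groups), 16 held a sample whose gap to the nearest of the others was large for the range of the group. For independent, normally distributed values this rule would flag about 1 in 20. The 72 sets share samples and hold correlated genes, so the count of 16 cannot be set against that rate. In 8 of the 16 the sample was replicate 4 of an Ito or Kupffer group. TME Kupffer replicate 4 was low for *Ctsg* (2.35), *Ltf* (4.28), *Camp* (6.06), *Ngp* (4.66) and *Ly6g* (7.13), control Kupffer replicate 4 was high for *Camp* (8.51), and control Ito replicate 4 was high for *Retnlg* (4.95) and *Ly6g* (8.28). TME Ito replicate 2 was high for *Ctsg* (10.52).

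In the endothelial controls, replicate 3 was low for *Mpo* (2.33) and replicate 4 was low for *Elane* (8.59) and *Retnlg* (2.33). Among the tumors, metastasis replicate 4 was high for *Ctsg* (3.80) and low for *Ngp* (2.14), and primary tumor replicate 4 was high for *Ngp* (4.36), all not well above background. Primary tumor replicate 2 was low for *Mpo* by its downstream probe (8.37).

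Without replicate 4 of the Ito and Kupffer groups, the change of *Ltf* between TME and control was larger in Ito than in endothelial cells, by 3.44 on the log2 scale, by the contrast of the differences in limma. This contrast was not called when replicate 4 was left out of every group.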

How the results depend on the processing

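With all samples, 0 of 9 genes were called between TME and control in endothelial cells. The count was 1 after loess and Aquantile, after scaling to the 75th percentile, with the filter on dim probes (7 genes tested) and without TME Ito replicate 2, 2 with the methods' t-test and without replicate 4 of the Ito and Kupffer groups, and 3 with the compared groups alone in the fit. Over all probes, 636 calls became 1291 after loess, 2231 with the t-test and 2947 with those groups alone. Without replicate 4 of the Ito and Kupffer groups the counts were 5 in Ito and 2 in Kupffer cells, against 0, and calls over all probes went from 161 to 4265 and from 243 to 2145. Replicate 4 had been set apart by the same difference that these counts test. Without TME Ito replicate 2 as well (settings with this sample left out were chosen after seeing the data), they were 3, 4 and 4 in endothelial, Ito and Kupffer cells. Leaving out each replicate number in turn gave 0 to 2, 0 to 5 and 0 to 2.

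Control Ito against control endothelial cells went from 0 to 1 with the compared groups alone and with the t-test, and to 2 in both fits without replicate 4 of the Ito and Kupffer groups (0 to 2 over replicate numbers). Control Kupffer against control endothelial cells went from 1 to 2 with the 75th percentile, the filter and the exclusion of both sets, and to 0 at the study's thresholds and without replicate 4 of the Ito and Kupffer groups (0 to 2 over replicate numbers). Control Kupffer against control Ito cells gave 1 in both fits without replicate 4 of the Ito and Kupffer groups, and none with any replicate number left out of all groups. TME Kupffer against TME endothelial cells gave 2 with the compared groups alone and 1 with the t-test, and against TME Ito cells 1 with the filter. Metastasis against control Kupffer cells went from 4 to 2 after loess and 1 at the study's thresholds (1 to 4 over replicate numbers), and primary tumor against TME Kupffer cells from 5 to 2 at the study's thresholds and 6 without TME Ito replicate 2 (3 to 5 over replicate numbers). The contrasts between cell types gave 1 and 2 calls in the fits without replicate 4 of the Ito and Kupffer groups, and none with any replicate number left out of all groups. The cause was not tested.

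With the array as a replicate block, the endothelial, Ito and Kupffer counts stayed at 0, and the block changed no count. No called value changed sign. Without replicate 4 of the Ito and Kupffer groups, 13 of 108 differences between 2 groups and 9 of 27 contrasts between cell types, none called in either fit, did: 7 of 9 genes were higher in control Ito than in control endothelial cells with all samples and 3 without it, and 4 and 9 were higher in TME Ito than in TME endothelial cells.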
